A study of Mus musculus with 8 samples.

Results

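Interferon response genes are those that cells switch on when interferons, the cytokines of antiviral and inflammatory defence, reach them. A list of 41 such genes, induced by type I or type II interferon, was matched by gene symbol to the rows of the deposited count table. All 41 were found among its 53700 genes, and 39 had enough counts to be tested. They were followed in 8 libraries of ribosome-associated RNA from mouse skin, in 3 groups given by the sample titles, namely uninjured skin (n = 3), skin at day 3 after wounding (n = 2) and skin at day 7 after wounding (n = 3).

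All mice carried AdipoqCreER, a tamoxifen-inducible recombinase expressed from the adiponectin gene, together with R26-NuTRAP, a reporter allele that, once recombined, marks the ribosomes of a cell with GFP, and all 3 groups are labelled as tamoxifen-treated. The protocols give mice of 7 to 9 weeks wounded in the resting phase of the hair cycle, with 4 full-thickness excisions made by a 5 mm punch. RNA bound to tagged ribosomes was pulled down with an antibody against GFP, and 20 ng went into each library. The series title asks how PDGF signalling bears on the passage of adipocytes to fibroblasts in wound healing. All groups are of the same genotype. The titles number the replicates but do not say whether each came from a different animal, so p-values here measure the spread between these libraries.

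Type I interferons signal through the receptor of Ifnar1 and Ifnar2 and the kinases Jak1 and Tyk2 to a complex that holds Stat2 and Irf9 and binds a DNA element called the interferon-stimulated response element (ISRE). Type II interferon, encoded by Ifng, signals through Ifngr1 and Ifngr2, and genes that answer to it carry the gamma-activated site (GAS). The induced genes encode proteins that bind or cut foreign RNA, modify other proteins, present antigen, and act back on the pathway itself. In healing skin such genes are known from immune cells, keratinocytes and stromal cells alike.

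The libraries held 5308959 to 17751689 counts, and a floor of 3 counts corresponded to 0.169 to 0.565 CPM (counts scaled to a common library total) before normalization. All 12 adipocyte markers had counts in every library, and their summed level was 50690 to 108200 CPM at day 7, against 84630 to 104900 CPM in uninjured skin. Markers of other cells were present too. Macrophage and monocyte markers (16 genes) summed to 529 to 1190 CPM at day 7, against 163 to 328 CPM in uninjured skin, and skeletal muscle markers (10 genes) to 771 to 1405 CPM at day 7, against 4588 to 9987 CPM in uninjured skin. The 2 day 3 libraries stood apart from each other. Markers of luminal, that is glandular, epithelium (8 genes) summed to 1542 CPM in replicate 1 and 20.95 CPM in replicate 2, and macrophage markers to 321 CPM in replicate 1 and 1182 CPM in replicate 2. In such bulk RNA, fewer cells of a type and less RNA per cell cannot be told apart, and the values below are those of the recovered RNA, not of adipocytes alone.

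At day 7 after wounding, 10 of the 39 tested genes rose above uninjured skin and 0 fell. The genes that rose were Ifit1, Ifit3, Isg15, Usp18, Oasl1, Oasl2, Oas1a, Oas2, Rsad2 and Ifi47, and their fitted fold changes lay between 3.23-fold (Ifit3) and 5.77-fold (Ifit1). They made up 25.6% of the tested members, beside 5.90% of all 18656 genes tested called higher and 1.77% called lower (edgeR quasi-likelihood test, Benjamini-Hochberg adjusted p under 0.05). The median log2 fold change was 0.46 over the members and 0.04 over all genes. Of the 39 members, 35 had a positive and 4 a negative log2 fold change, whereas 52.1% of all genes were positive. Every day 7 library lay above every uninjured library for 14 members, that is 35.9% of them, beside 16.7% of all genes. Besides the genes that rose, these were Ifit2, Stat2, Ifi44 and Herc6.

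The number of members called depended on single libraries. It was 6 without day 7 replicate 1, 3 without day 7 replicate 2, 3 without uninjured replicate 1 and 5 without uninjured replicate 3. The count over all genes moved too. With all libraries 1101 genes were called higher, against 314 without day 7 replicate 1, 293 without day 7 replicate 2, 238 without uninjured replicate 1 and 312 without uninjured replicate 3. Without day 7 replicate 3, 12 members and 2616 genes were called higher, and those genes were 14.2% of all tested. Ifit1 and Isg15 kept their call in all 17 alternatives run, with edgeR, DESeq2 or limma-voom adjusted p of at most 0.0334 for Ifit1 and 0.0347 for Isg15.

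**Figure D1:**
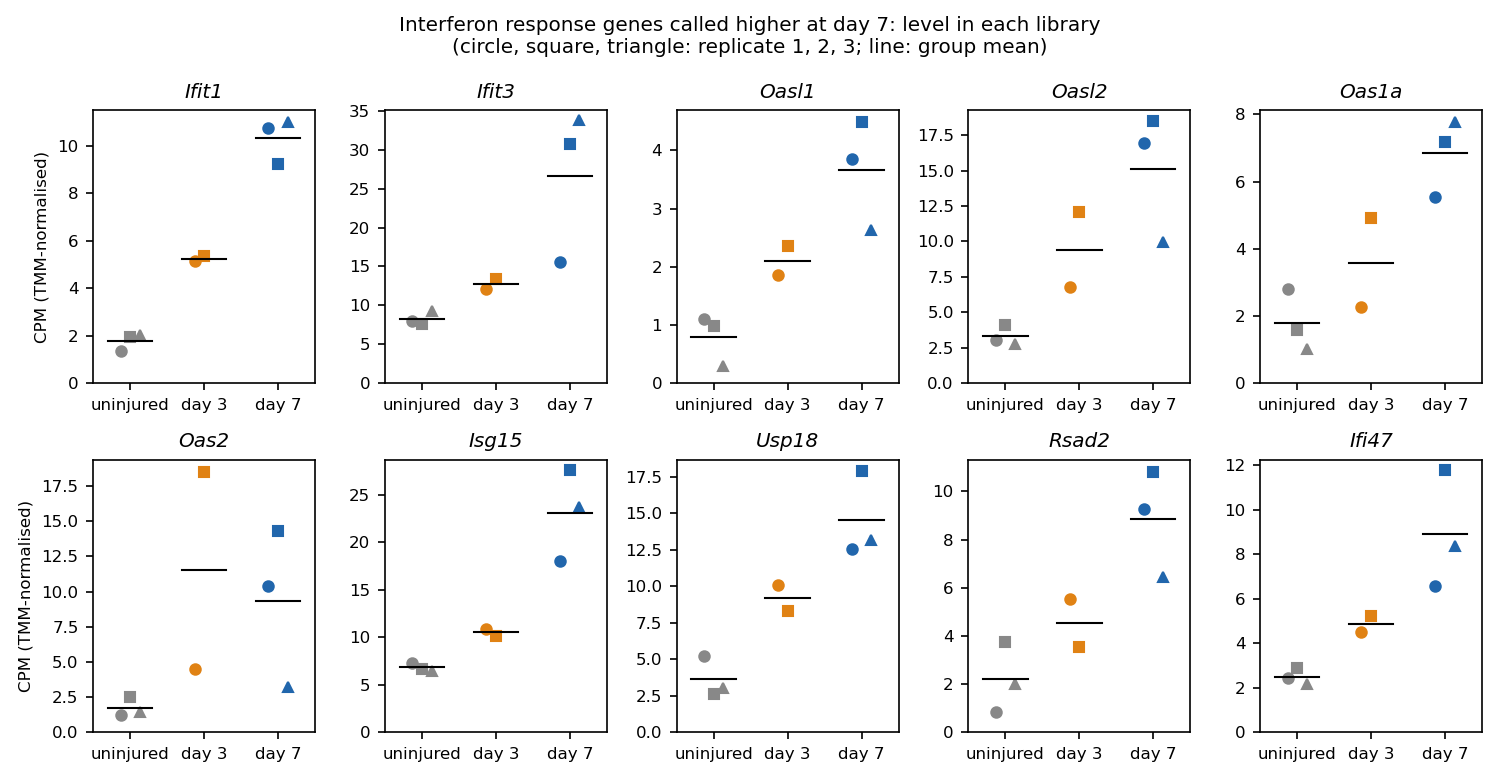
Level of each of the 10 genes called higher at day 7, in TMM-normalised CPM on a linear axis, by group (uninjured, day 3, day 7). Each point is 1 library, its shape gives the replicate number and the line is the group mean. For all 10 genes the 3 day 7 points lie above the 3 uninjured points, and Oas2 has its highest point in day 3 replicate 2 (18.5 CPM).

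The IFIT proteins bind foreign RNA and hold back its translation. Ifit1, which recognises RNA with an incompletely methylated cap, had 1.34, 1.96 and 2.02 CPM in uninjured skin, 5.14 and 5.35 CPM at day 3, and 10.8, 9.24 and 11.02 CPM at day 7. The 3 groups did not overlap, with uninjured libraries lowest and day 7 libraries highest. Day 7 lay 2.53 ± 0.37 (SE) above uninjured skin on the log2 scale (edgeR adjusted p = 0.00511). Ifit3, a partner that binds other IFIT proteins, had 7.93, 7.60 and 9.24 CPM in uninjured skin, 12.1 and 13.4 CPM at day 3, and 15.5, 30.7 and 33.8 CPM at day 7. Its groups did not overlap either, and day 7 replicate 1 was close to the day 3 libraries. Its log2 fold change at day 7 was 1.69 ± 0.32 (SE, edgeR adjusted p = 0.0128), and the adjusted p was 0.0557 without day 7 replicate 2 and 0.0649 without uninjured replicate 1. Ifit2, the remaining family member on the list, had a log2 fold change of 1.99 with a 95% interval of 0.21 to 3.77 (edgeR adjusted p = 0.0995). It ranged from 3.95 to 5.41 CPM at day 7, against 0.144 to 2.44 CPM in uninjured skin, where replicate 3 held 1 count, under the floor of 3. DESeq2 gave Ifit2 an adjusted p of 0.0389 and edgeR with no filter on low counts 0.0198.

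Ifit3 counts carry a limit of sequence. Of its transcript stretches of 50 bases, 51.2% also occur in other genes, most often its close relative Ifit3b, and how reads that match both were counted is not given in the sources used here. Ifit3b itself rose at day 7 (log2 fold change 1.89, edgeR adjusted p = 0.0386, and 0.0505 to 0.131 in the 5 fits that lost the call when 1 library was left out). In Ifit1 the share was 7.13%, mostly with Ifit1bl2.

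Isg15 encodes a ubiquitin-like protein that is attached to other proteins during the interferon response. It had 7.32, 6.68 and 6.499 CPM in uninjured skin, 10.9 and 10.2 CPM at day 3, and 18.0, 27.6 and 23.7 CPM at day 7. The groups were fully separate and the uninjured libraries lay close together. Isg15 had a log2 fold change at day 7 of 1.76 ± 0.27 (SE, edgeR adjusted p = 0.00661). Usp18, the protease that removes Isg15 from proteins and also dampens signalling at the type I receptor, had 5.25, 2.63 and 3.03 CPM in uninjured skin, 10.1 and 8.34 CPM at day 3, and 12.6, 17.9 and 13.2 CPM at day 7. All wounded libraries lay above all uninjured ones, and the log2 fold change at day 7 was 2.01 ± 0.36 (SE, edgeR adjusted p = 0.011, and 0.0542 without day 7 replicate 2). Herc6, the main ligase that attaches Isg15 in mice, had a log2 fold change of 0.79 (edgeR adjusted p = 0.233), with 5.23 to 9.06 CPM at day 7, against 2.89 to 5.15 CPM in uninjured skin. Outside the list, Uba7, the enzyme that activates Isg15 for attachment, rose at day 7 (log2 fold change 2.22, edgeR adjusted p = 0.0121, and 0.0515 without day 7 replicate 2 and 0.0591 without uninjured replicate 1).

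Proteins of the OAS family sense double-stranded RNA, and those with synthetase activity make oligoadenylates that switch on the nuclease RNase L. All 4 tested genes of the family, OAS-like ones included, rose at day 7, with a median log2 fold change of 2.17. Oasl2 had 3.05, 4.10 and 2.74 CPM in uninjured skin, 6.79 and 12.1 CPM at day 3, and 16.98, 18.5 and 9.94 CPM at day 7. Day 3 replicate 2 lay above day 7 replicate 3, and every wounded library lay above every uninjured one. The log2 fold change at day 7 was 2.18 ± 0.38 (SE, edgeR adjusted p = 0.00986, and 0.0525 without uninjured replicate 1). Oasl1, which in mice is known to restrain translation of Irf7, had 1.10, 0.980 and 0.289 CPM in uninjured skin, 1.85 and 2.35 CPM at day 3, and 3.85, 4.48 and 2.64 CPM at day 7. It was the lowest of the called genes at day 7, with groups that did not overlap, and its log2 fold change was 2.15 ± 0.56 (SE, edgeR adjusted p = 0.0429). Uninjured replicate 3 held 2 counts of Oasl1, under the floor of 3 counts, so the size of its change is uncertain.

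Oas1a had 2.81, 1.59 and 1.01 CPM in uninjured skin, 2.26 and 4.92 CPM at day 3, and 5.55, 7.19 and 7.79 CPM at day 7. The day 7 libraries lay above all others, and day 3 replicate 1 lay among the uninjured ones. Its log2 fold change at day 7 was 1.91 ± 0.50 (SE, edgeR adjusted p = 0.0413). Of its transcript stretches, 57.6% also occur in other genes, mostly Oas1g, so its count is uncertain in the same way as that of Ifit3. Oas2 had 1.22, 2.51 and 1.44 CPM in uninjured skin, 4.52 and 18.5 CPM at day 3, and 10.4, 14.3 and 3.23 CPM at day 7. It was the exception among the called genes, with its highest library and its highest group mean at day 3. Its log2 fold change at day 7 was 2.39 ± 0.65 (SE, edgeR adjusted p = 0.0481). The order of Oas2 within the wounded groups was that of the macrophage marker sum, which was 321 and 1182 CPM in the day 3 libraries and 760, 1190 and 529 CPM in the day 7 libraries. The marker sums of fibroblasts, neutrophils, dendritic cells, mast cells and T, B and NK cells followed the same order. For fibroblasts the sum was 1075 and 2536 CPM at day 3, and 5742, 7887 and 4101 CPM at day 7. The part of any of these cell types in the Oas2 values was not tested.

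Oas3 fell under the filter on low counts, with 13, 10 and 7 counts at day 7, against 2, 8 and 2 counts in uninjured skin. The calls of the 3 lower OAS genes were the least firm. Leaving out day 7 replicate 1 or 2 or any 1 uninjured library ended them, with edgeR adjusted p of 0.0682 to 0.133 for Oas1a, 0.0761 to 0.174 for Oas2 and 0.0802 to 0.152 for Oasl1. Limma-voom gave adjusted p of 0.118 for Oas2 and 0.0588 for Oasl1.

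Rsad2, also called viperin, makes a nucleotide that stops viral RNA synthesis. It had 0.854, 3.74 and 2.02 CPM in uninjured skin, 5.55 and 3.53 CPM at day 3, and 9.28, 10.8 and 6.47 CPM at day 7. Day 7 libraries were highest, and day 3 replicate 2 fell within the uninjured range. The log2 fold change at day 7 was 1.96 ± 0.52 (SE, edgeR adjusted p = 0.0439). That p was 0.123 to 0.152 when day 7 replicate 1, day 7 replicate 2, uninjured replicate 1 or uninjured replicate 3 was left out. Cmpk2, a mitochondrial nucleotide kinase gene that lies next to Rsad2, did not pass the test, with a log2 fold change of 0.34 and a 95% interval of -0.51 to 1.20. Its levels were 10.1 to 11.2 CPM at day 7, against 5.34 to 10.2 CPM in uninjured skin.

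Of the GTPase families that act on the membranes around intracellular pathogens, 1 of 6 members rose. Ifi47, of the immunity-related (IRG) family, had 2.44, 2.88 and 2.17 CPM in uninjured skin, 4.52 and 5.24 CPM at day 3, and 6.57, 11.8 and 8.39 CPM at day 7. The groups did not overlap and followed the order of time. The log2 fold change at day 7 was 1.82 ± 0.38 (SE, edgeR adjusted p = 0.0205), with 0.0749 to 0.101 when day 7 replicate 2, uninjured replicate 1 or uninjured replicate 3 was left out. Another gene, Olfr56, overlaps 8.77% of the Ifi47 exon bases in the deposited annotation. The other 5 members, Gbp2, Gbp3 and Gbp7 of the guanylate-binding family and Igtp and Irgm1 of the IRG family, had log2 fold changes of -0.02 to 0.27, and none passed the test. They were well detected, with Gbp2 at 19.6 to 55.9 CPM at day 7, against 21.95 to 40.4 CPM in uninjured skin.

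**Figure D2:**
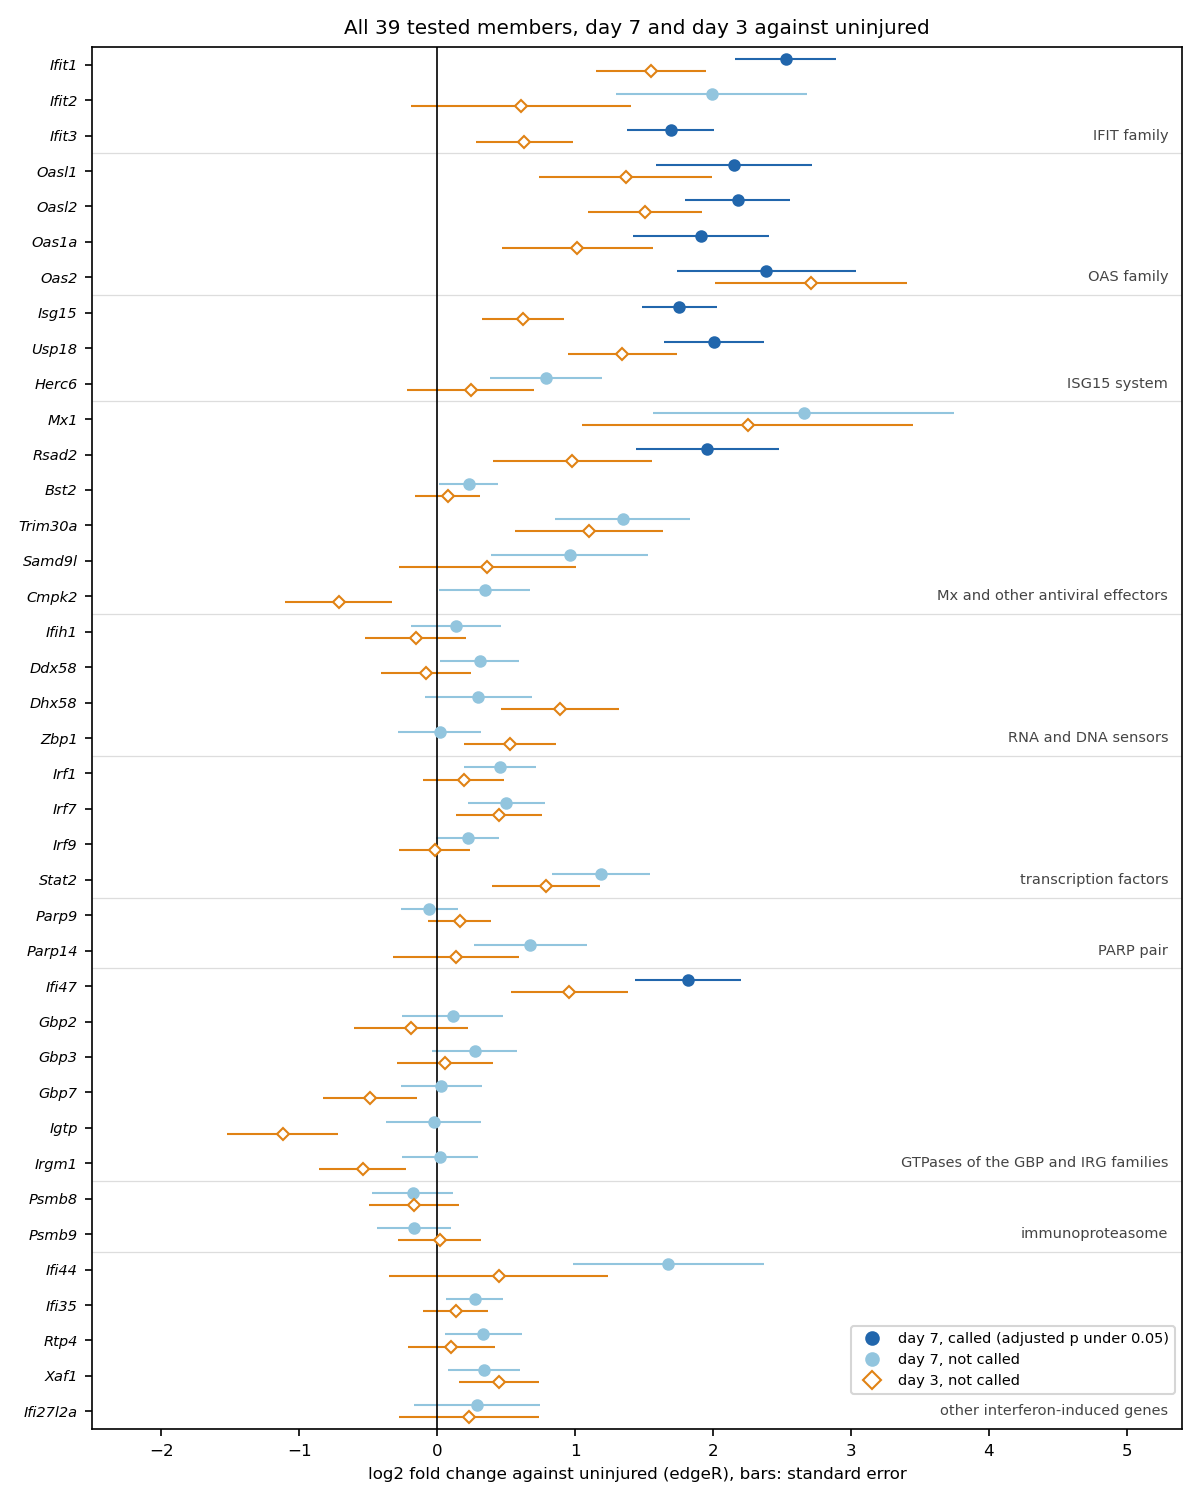
Log2 fold change against uninjured skin for the 39 tested genes, grouped by role, at day 7 and at day 3, with bars of 1 standard error on either side. The 10 genes called at day 7 lie between 1.69 and 2.53, and the immunoproteasome and most GTPase genes lie near 0.

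In the deposited coordinates, whose genome build the sources used here do not settle, Ifit1 (chr19:34618271-34627409, plus strand) and Ifit3 (chr19:34560931-34566131, plus) lie on chromosome 19, as does the uncalled Ifit2 (chr19:34528094-34553819, plus), which comes before both. Oasl2 (chr5:115034997-115050295, plus) and Oasl1 (chr5:115061299-115075974, plus) form one pair on chromosome 5, and Oas2 (chr5:120868398-120887918, minus) and Oas1a (chr5:121034319-121045584, minus) lie further along it. Isg15 is at chr4:156283912-156285253 (minus), Usp18 at chr6:121222865-121247876 (plus), Rsad2 at chr12:26492745-26506451 (minus) and Ifi47 at chr11:48967414-48987801 (plus). Counts were made over the exons of each gene.

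The promoters of the called genes are shown because the elements that interferon signalling acts through lie there. RefSeq promoter entries on GRCm38.p6 were found for 31 of the 41 members, 8 of them called. Each line gives the 160 bases before the annotated start, 5′ to 3′ on the gene's strand, and capitals mark matches to the ISRE core (GAAA, any 2 bases, GAAA, or on the other strand TTTC, any 2 bases, TTTC) or to the GAS (TTC, any 3 bases, GAA, the same on both strands). The first 5 are the called genes with a match within 250 bases before the start, and Oasl2 and Ifi47 are the 2 with the smallest adjusted p among those without.
Ifit1, chr19:34640729-34640888, plus strand: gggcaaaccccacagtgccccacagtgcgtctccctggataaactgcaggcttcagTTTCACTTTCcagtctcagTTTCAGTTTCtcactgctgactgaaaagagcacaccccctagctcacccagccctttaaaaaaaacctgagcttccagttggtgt
Isg15, chr4:156200819-156200978, minus strand: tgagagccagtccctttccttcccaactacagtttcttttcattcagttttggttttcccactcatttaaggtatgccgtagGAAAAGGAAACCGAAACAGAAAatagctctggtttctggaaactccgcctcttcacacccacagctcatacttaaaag
Ifit3, chr19:34583369-34583528, plus strand: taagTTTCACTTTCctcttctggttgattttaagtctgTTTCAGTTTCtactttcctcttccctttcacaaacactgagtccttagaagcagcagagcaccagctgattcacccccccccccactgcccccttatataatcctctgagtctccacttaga
Oas1a, chr5:120907526-120907685, minus strand: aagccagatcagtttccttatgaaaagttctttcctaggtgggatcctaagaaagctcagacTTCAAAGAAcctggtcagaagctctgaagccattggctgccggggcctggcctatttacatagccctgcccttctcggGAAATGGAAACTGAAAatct
Rsad2, chr12:26456453-26456612, minus strand: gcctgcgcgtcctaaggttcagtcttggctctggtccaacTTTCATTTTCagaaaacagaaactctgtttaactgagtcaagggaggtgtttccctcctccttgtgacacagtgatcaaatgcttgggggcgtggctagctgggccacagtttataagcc
Oasl2, chr5:114896774-114896933, plus strand: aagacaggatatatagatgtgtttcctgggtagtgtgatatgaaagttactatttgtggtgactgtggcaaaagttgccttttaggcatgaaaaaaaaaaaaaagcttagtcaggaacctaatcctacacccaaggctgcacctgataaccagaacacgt
Ifi47, chr11:49076427-49076586, plus strand: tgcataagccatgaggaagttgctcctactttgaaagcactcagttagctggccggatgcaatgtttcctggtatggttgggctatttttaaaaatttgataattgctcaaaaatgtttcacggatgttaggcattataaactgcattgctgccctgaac

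Ifit1 and Ifit3 each held 2 separate ISRE core matches, starting 104 and 85 bases before the start in Ifit1 and 156 and 122 bases before it in Ifit3. In Isg15, 3 matches overlapped end to end, beginning 78, 72 and 66 bases before the start, and in Oas1a 2 overlapped at 20 and 14 bases. Rsad2 held 1 match at 120 bases. Of the 8 called genes with an entry, Oas1a alone had a GAS match, at 98 bases before the start.

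The ISRE core was found within 250 bases before the start in 14 of the 31 members with an entry, that is 45.2%, beside 3.46% of all 27025 genes with an entry (2.98% of 32851 promoters of that length). Called genes held it in 5 of 8 and the other members in 9 of 23. The GAS was found in 7 of 31 members (22.6%), beside 8.13% of all genes, with 1 of 8 among the called genes and 6 of 23 among the others. Uncalled members with an ISRE core included Gbp2, Gbp3, Gbp7, Igtp, Irgm1 and Bst2. A match is a run of letters and not a shown binding site.

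The transcription factors of the pathway, Stat2, Irf9, Irf7 and Irf1, did not pass the test at day 7. Stat2, the signalling partner particular to type I and type III interferons, came nearest. It had 12.0, 14.6 and 16.3 CPM in uninjured skin, 12.8 and 36.2 CPM at day 3, and 40.8, 32.2 and 24.8 CPM at day 7. All day 7 libraries lay above all uninjured ones, and the day 3 libraries fell at both ends of the range. The log2 fold change at day 7 was 1.19 ± 0.36 (SE, edgeR adjusted p = 0.0661). Stat2 passed the test without day 7 replicate 3 (adjusted p = 0.0324), without either day 3 replicate (0.0241 and 0.0247) and with DESeq2 (0.0244). Like Oas2, it was low in day 3 replicate 1 and high in day 3 replicate 2. Macrophage markers summed to 321 and 1182 CPM in these libraries, and fibroblast markers to 1075 and 2536 CPM. At day 7 the orders differed, with Stat2 highest in replicate 1 and both sums highest in replicate 2. The endothelial and keratinocyte marker sums had the order of Stat2 within both wounded groups. Endothelial markers summed to 272 and 305 CPM at day 3, and to 585, 553 and 144 CPM at day 7. Keratinocyte markers summed to 1168 and 4675 CPM at day 3, and to 5720, 1871 and 1621 CPM at day 7. The part of any of these cells in the Stat2 values was not tested.

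Irf9, which gives the complex its DNA contact, had 20.1, 29.7 and 27.3 CPM in uninjured skin, 23.03 and 27.7 CPM at day 3, and 29.0, 32.9 and 28.2 CPM at day 7. The groups overlapped, and the log2 fold change at day 7 was 0.22 (95% interval -0.36 to 0.80, edgeR adjusted p = 0.549). Irf7, which amplifies type I interferon production, had 11.1, 16.6 and 24.1 CPM in uninjured skin, 23.7 and 23.4 CPM at day 3, and 24.3, 24.0 and 24.9 CPM at day 7. The wounded libraries were close together while the uninjured ones spread from well below up to them, and the log2 fold change at day 7 was 0.50 (95% interval -0.22 to 1.22, edgeR adjusted p = 0.27). Irf1, a target of both interferon types, had 24.0, 19.4 and 37.1 CPM in uninjured skin, 30.6 and 30.5 CPM at day 3, and 34.1, 33.9 and 42.3 CPM at day 7. Uninjured replicate 3 lay among the day 7 libraries, and the log2 fold change was 0.46 (95% interval -0.21 to 1.13, edgeR adjusted p = 0.278). The gene Gm17334 overlaps 20% of the Irf1 exon bases in the deposited annotation.

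Among the remaining antiviral effectors, Mx1, a GTPase that blocks influenza-like viruses, had the largest log2 fold change of all members at day 7, 2.66, on few counts, and did not pass the test (95% interval -0.15 to 5.47, edgeR adjusted p = 0.151). That value was 2.01 without day 7 replicate 1 and 6.69 without uninjured replicate 2. This replicate was the only uninjured library with a count, so the value without it depends on the prior count of the fit and is no bound. Mx1 was at 2.72, 1.49 and 0.479 CPM at day 7, against 0, 0.551 and 0 CPM in uninjured skin. Mx2 was left out of the test, with 6, 12 and 0 counts at day 7, against 2, 5 and 0 counts in uninjured skin. Trim30a, which in mice restrains Toll-like receptor signalling, was at 12.8, 12.8 and 4.31 CPM at day 7, against 4.03, 5.39 and 2.17 CPM in uninjured skin (log2 fold change 1.35, edgeR adjusted p = 0.112). Its day 7 replicate 3 lay within the uninjured range, and without that library the adjusted p was 0.0211. Samd9l had a log2 fold change of 0.96 and Bst2, the tether that holds budding virus at the membrane, of 0.23, and neither passed the test.

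The cytosolic sensors of nucleic acid had small log2 fold changes. Ddx58 (RIG-I), Ifih1 (MDA5), Dhx58 (LGP2) and Zbp1 had log2 fold changes of 0.31, 0.14, 0.30 and 0.02 at day 7, and none passed the test. The ADP-ribosyltransferases Parp14 and Parp9 had 0.68 and -0.06. The inducible proteasome subunits Psmb8 and Psmb9, which change the peptides cut for antigen presentation, had -0.18 and -0.17 (edgeR adjusted p = 0.721 and 0.712). Their 95% intervals ran from -0.93 to 0.57 and from -0.85 to 0.52, so a rise of the size seen for the called genes lay outside them. Ifi44 had a log2 fold change of 1.68 (edgeR adjusted p = 0.151), with 3.28 to 5.27 CPM at day 7, against 0.245 to 2.46 CPM in uninjured skin. Ifi35, Rtp4 and Xaf1, an apoptosis regulator, lay between 0.27 and 0.34.

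Ifi27l2a, a small membrane protein gene, was the most abundant member by far. It was at 2371, 2957 and 4935 CPM at day 7, against 3746, 2595 and 2061 CPM in uninjured skin, and at 4982 and 1594 CPM at day 3. The spread within each group was as wide as that between groups (log2 fold change at day 7 0.29, edgeR adjusted p = 0.709). Sums over all 41 members are therefore mainly Ifi27l2a, and medians over members were used in its place.

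Levels of different genes were compared per kilobase of exon. In uninjured skin the called genes spanned means of 0.303 (Oasl1) to 9.72 (Isg15) CPM per kilobase, and at day 7 of 1.40 (Oasl1) to 32.9 (Isg15). At day 7 Isg15 thereby stood beside the uncalled Psmb8 at 31.7 and Ifi35 at 30.1 CPM per kilobase. In uninjured skin those genes were at 35.8 and 24.9 CPM per kilobase. Ifi27l2a had 7389 CPM per kilobase at day 7, against 6050 in uninjured skin, and Bst2, the next, 131 at day 7, against 111 in uninjured skin. The 10 genes that rose were, apart from Isg15, at no more than 4.73 CPM per kilobase (Ifit3) in uninjured skin, and low uncalled members such as Mx1 (0.049 CPM per kilobase) and Ifi44 (0.213) were there as well.

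Library by library, the 10 called genes were set against the uninjured mean on the log2(CPM + 0.5) scale. Their median was -0.04, 0.15 and -0.16 in the uninjured libraries, 0.94 and 1.18 in the day 3 libraries, and 1.77, 2.08 and 1.65 in the day 7 libraries. The genes were called from the uninjured and day 7 libraries, so those medians restate the call. The day 3 medians are set against the same uninjured libraries, which entered the choice of the genes. The other tested members had medians of -0.04, 0.13 and 0.03 in uninjured, 0.17 and 0.20 in day 3, and 0.19, 0.37 and 0.47 in day 7 libraries. Within day 7, replicate 2 held the highest level of 7 of the 10 called genes, and the share over all genes was not counted. The lowest level was in replicate 1 for 5 of the 10, in replicate 2 for 1 and in replicate 3 for 4. Over all tested genes the lowest was in replicate 1 for 38.3%, in replicate 2 for 18.4% and in replicate 3 for 43.4%.

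**Figure D3:**
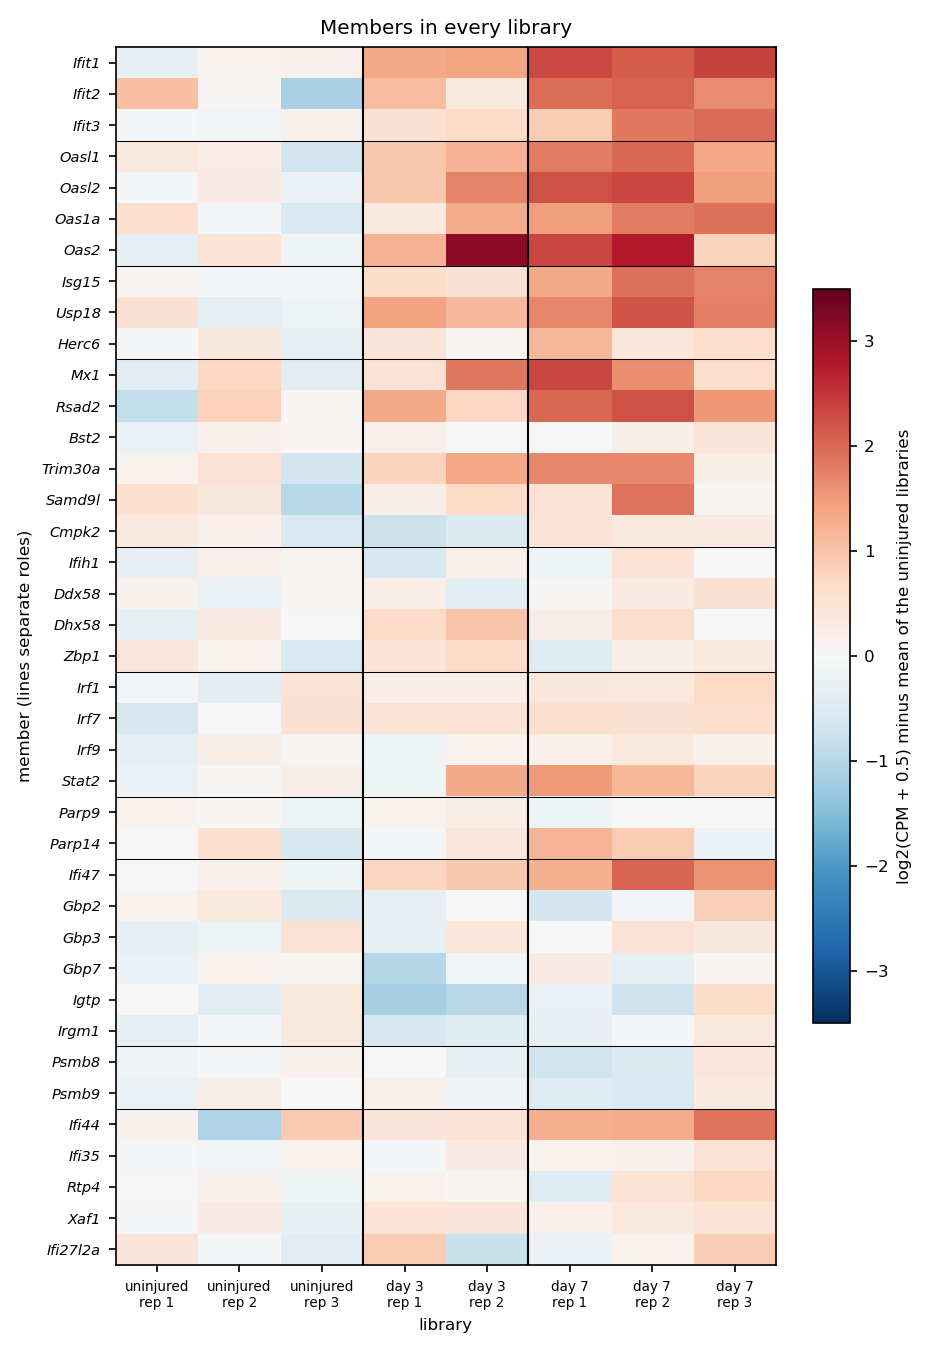
The 39 tested genes (down the page, by role) in the 8 libraries (uninjured, day 3, day 7 from left to right), coloured by log2(CPM + 0.5) minus the mean of the uninjured libraries. Red marks higher and blue lower values. Most IFIT, Isg15 and OAS genes redden at day 3 and more so at day 7, Oas2 being higher at day 3, with medians of the called genes of 0.94 and 1.18 at day 3 and 1.65 to 2.08 at day 7, while the lower blocks show no common shift.

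At day 3, no member passed the test against uninjured skin. In that comparison 0.0107% of all genes were called higher (2 genes) and 0 lower. The lowest edgeR adjusted p of a member was 0.19. An unadjusted p under 0.05 was found for 6 members, 5 of them with higher and 1 with lower values at day 3. The share of all genes under that unadjusted p was not counted, so this number has no background beside it. Limma-voom called 0 members and DESeq2 3, namely Ifit1 (adjusted p = 0.0394), Oas2 (0.0108) and Oasl2 (0.0453). Over all 18656 genes DESeq2 called 324 higher in this comparison, that is 1.74%, and limma-voom 0. The median log2 fold change of the members was 0.37 and that of all genes 0.02. Both day 3 libraries lay above all uninjured libraries for 12 members, 30.8% of those tested, beside 16.9% of all genes.

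The 5 members with unadjusted p under 0.05 and higher values at day 3 had log2 fold changes of 2.71 (Oas2), 1.55 (Ifit1), 1.51 (Oasl2), 1.34 (Usp18) and 0.96 (Ifi47). For 9 of the 10 genes called at day 7 the day 3 mean lay between the uninjured and the day 7 mean, Oas2 being the exception. These genes were chosen by low uninjured and high day 7 values, which favours a mean in between. The share over all genes was not counted. Ifit1 was at 5.24 ± 0.14 CPM at day 3, against 1.77 ± 0.38 CPM in uninjured skin (SD, n = 2 and 3). The Oas2 value rested on 1 library. Without day 3 replicate 2 its log2 fold change was 1.33. The value of Stat2 was 0.79 with both day 3 libraries and -0.19 without replicate 2.

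Some members had lower values at day 3. Igtp was at 12.8 and 14.5 CPM at day 3, against 29.5, 22.4 and 37.6 CPM in uninjured skin (log2 fold change -1.12, unadjusted p = 0.0182, edgeR adjusted p = 0.299). Irgm1 was at 12.8 and 14.1 CPM at day 3, against 15.0, 18.8 and 25.0 CPM in uninjured skin. Neither gene overlapped between the groups, and neither passed the test. The share of all genes with both day 3 libraries below all uninjured ones was not counted. Both encode IRG proteins that regulate the other GTPases of their family, and both overlapped the uninjured range at day 7, at 17.4 to 45.9 CPM for Igtp and 16.0 to 25.0 CPM for Irgm1.

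Day 7 and day 3 were also compared directly, with 0 members called in either direction, beside 0.0643% of all genes called higher and 0.0214% lower. The lowest edgeR adjusted p of a member was 0.289, for Isg15. An unadjusted p under 0.05 was found for 5 members, all with higher values at day 7, and the share of all genes under it was not counted. DESeq2 and limma-voom called 0 as well. Isg15 was at 23.1 ± 4.84 CPM at day 7, against 10.5 ± 0.52 CPM at day 3 (SD, n = 3 and 2), a log2 fold change of 1.14. Ifit3 had 1.06, Ifit1 0.98, Igtp 1.10 and Cmpk2 1.06. Every day 7 library lay above both day 3 libraries for 16 members, 41% of those tested, beside 14.2% of all genes, and the median log2 fold change was 0.40 over members and 0.08 over all genes. Both comparisons with day 3 use the same 2 day 3 libraries, and both comparisons with uninjured skin the same 3 uninjured libraries.

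The interferons themselves were hardly detected. The 21 ligand genes together had 1 to 3 counts per uninjured library, 0 and 2 counts in the day 3 libraries, and 0 to 2 counts per day 7 library, so none could be tested. The few counts fell on Ifna2, Ifna6, Ifna7, Ifna11, Ifnb1, Ifne, Ifnk and Ifng. Ifng, the type II interferon, had counts in 1 uninjured library only (0.144 CPM). At this depth a change in any ligand was not detectable.

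Receptors were detected in every library. The type I receptor chains Ifnar1 and Ifnar2 averaged 30.1 ± 7.66 and 66.7 ± 22.5 CPM at day 7, against 33.6 ± 6.41 and 91.9 ± 17.4 CPM in uninjured skin (SD, n = 3 each), and neither passed the test. Ifngr1, the binding chain of the type II receptor, was at 50.6, 81.8 and 118 CPM at day 7, against 211, 153 and 187 CPM in uninjured skin. All day 7 libraries lay below all uninjured ones, without passing the test (log2 fold change -1.14, edgeR adjusted p = 0.0606). Ifngr2 averaged 57.6 ± 5.84 CPM at day 7, against 56.1 ± 10.2 CPM in uninjured skin (SD, n = 3 each). Ifnlr1, the receptor chain particular to type III interferon and a gene of epithelia, was the only one of 6 receptor genes to rise, at 10.6, 3.45 and 1.92 CPM at day 7, against 0.244, 0.429 and 1.30 CPM in uninjured skin (log2 fold change 3.08, edgeR adjusted p = 0.043). The size of this change is uncertain, since uninjured replicate 1 was under the floor of 3 counts. Leaving out day 7 replicate 1 or 2 or any 1 uninjured library ended this call (edgeR adjusted p of 0.057 to 0.202). Luminal epithelium markers summed to 1093, 1194 and 549 CPM in the same day 7 libraries, against 13.8, 26.5 and 11.7 CPM in the uninjured ones, and their part in this value was not tested. Il10rb, its partner chain, was at 37.1 ± 5.11 CPM at day 7, against 53.6 ± 1.57 CPM in uninjured skin (SD, n = 3 each, edgeR adjusted p = 0.157).

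Of 10 genes of the JAK-STAT relay and its inhibitors, 0 passed the test, with a median log2 fold change of 0.14. Of 16 tested genes of the sensing machinery upstream of interferon, 1 rose. This was Tmem173, which encodes the DNA-pathway adaptor STING, at 14.3, 12.1 and 5.99 CPM at day 7, against 1.59, 3.00 and 0.867 CPM in uninjured skin (5.66-fold, edgeR adjusted p = 0.0397). At day 3 it was at 3.496 CPM in replicate 1 and 18.0 CPM in replicate 2, the order of the macrophage marker sums of 321 and 1182 CPM. At day 7 the orders differed, with Tmem173 highest in replicate 1 and the macrophage sum highest in replicate 2. The endothelial and keratinocyte marker sums had the order of Tmem173 within both wounded groups. For endothelial markers they were 272 and 305 CPM at day 3, and 585, 553 and 144 CPM at day 7. The part of any of these cells in the Tmem173 values was not tested.

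A further 38 tested targets of type I interferon were counted, of which 6 rose and 0 fell at day 7, with a median log2 fold change of 0.86. Besides Uba7 and Ifit3b these were Slfn2, a growth regulator of immune cells (2.07), Sp100, a nuclear body protein (2.39), Phf11b (2.59) and Trim25, the ubiquitin ligase known for acting on RIG-I (0.90), with edgeR adjusted p of 0.0223, 0.023, 0.0297 and 0.0494. Phf11b was at 0.244, 0.551 and 0.289 CPM in uninjured skin, under the floor of 3 counts in replicates 1 and 3, so the size of its change is uncertain. Of 17 tested targets linked mainly to type II interferon, 4 rose and 0 fell, with a median of 1.05. These were Ido1, Tgtp2, Tgtp1 and Gbp4. Ido1, which breaks down tryptophan, was at 13.9, 23.1 and 8.39 CPM at day 7, against 0.122, 0.122 and 0 CPM in uninjured skin (edgeR adjusted p = 0.000944), and at 1.03 and 0.321 CPM at day 3. Its uninjured level is under the floor of 3 counts per library, so no fold change is given. Tgtp2 and Tgtp1 of the IRG family had log2 fold changes of 3.07 and 2.84 (edgeR adjusted p = 0.0107 and 0.0231) and are near-identical copies whose reads cannot be fully told apart. Both were under the floor of 3 counts in uninjured replicate 3, at 0.289 and 0.144 CPM, so the size of their change is uncertain. Gbp4 was at 17.7, 13.7 and 3.47 CPM at day 7, against 1.46, 0.796 and 3.18 CPM in uninjured skin (log2 fold change 2.74, edgeR adjusted p = 0.0326).

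Antigen presentation showed different values for its 2 classes. Of 16 genes of class I presentation 0 passed the test at day 7, with a median log2 fold change of -0.21, and of 3 genes of the constitutive proteasome 0, with a median of -0.51. Of 9 genes of class II presentation 1 rose, with a median of 1.19. It was Ctss, a protease of antigen-presenting cells, at 76.4, 116 and 55.1 CPM at day 7, against 12.4, 15.1 and 8.95 CPM in uninjured skin (log2 fold change 2.75, edgeR adjusted p = 0.0114). At day 3 no gene of any pathway list passed the test against uninjured skin.

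In all, 13 of 114 tested pathway genes outside the 41 rose at day 7 and 0 fell. That is 11.4%, beside 5.90% of all genes. The count rested on single libraries as that of the members did. It was 5 without day 7 replicate 1 (4.39%, beside 1.75% of all genes) and 4 without day 7 replicate 2 (3.57%, beside 1.64%). It was 23 without day 7 replicate 3 (20.4%, beside 14.2%), 5 without uninjured replicate 3 (4.35%, beside 1.68%) and 1 without uninjured replicate 1 (0.87%, beside 1.28%). Ido1 was that 1 gene, and it kept its call in all 17 alternatives. Ctss and Tgtp2 lost theirs only without uninjured replicate 1 (edgeR adjusted p = 0.0537 and 0.0513). Trim25 was the least firm and kept its call in 6 of 17. Where leaving out 1 of the day 7 or uninjured libraries ended a call, the adjusted p was 0.0526 to 0.134 for Tmem173, 0.0876 to 0.128 for Gbp4, 0.0632 to 0.0877 for Tgtp1, 0.0816 to 0.094 for Slfn2, 0.0818 to 0.0945 for Sp100 and 0.0875 to 0.116 for Phf11b.

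**Figure D4:**
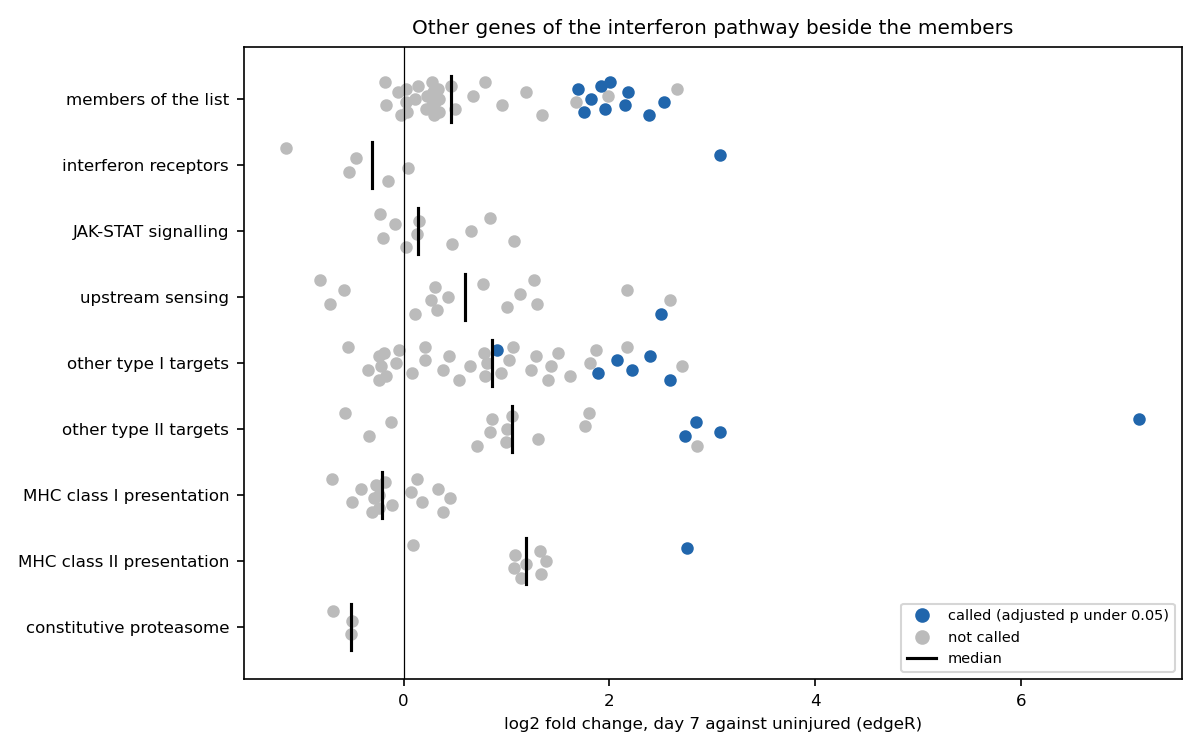
Log2 fold change of day 7 against uninjured skin for each tested gene of the pathway lists, beside the interferon response genes themselves, with called genes in blue, the others in grey and the median of each list as a vertical bar. The medians of receptor, JAK-STAT, class I and proteasome genes are -0.31, 0.14, -0.21 and -0.51, with the receptor Ifnlr1 far to the right at 3.08, and those of the other type I and type II targets are 0.86 and 1.05.

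Markers of several cell types moved with the called members at day 7. Of 16 macrophage and monocyte markers, 4 rose and 0 fell (median log2 fold change 1.78). Of 12 endothelial markers 9 rose (median 2.53), and of 10 fibroblast markers 4 rose (median 1.07). Of 8 luminal epithelium markers 7 rose. Some of these, such as Csn3 at 0 CPM in every uninjured library, were under the floor of 3 counts there, so no median is given. Endothelial markers summed to 144 to 585 CPM at day 7, against 87.3 to 179 CPM in uninjured skin. Of 10 skeletal muscle markers 9 fell, and of 12 adipocyte markers 1 fell (Pnpla2) with a median of -0.59. The summed level of the 10 called interferon genes was 110, 153 and 120 CPM at day 7, against 33.3, 34.7 and 30.5 CPM in uninjured skin, and 63.8 and 83.8 CPM at day 3. The part of these cell types in the rise of the interferon genes was not tested.

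Markers of lymphocytes were near the detection limit. The 10 T, B and NK cell markers summed to 9.46 to 12.6 CPM at day 7, against 5.06 to 8.94 CPM in uninjured skin, with up to 4 of the 10 at 0 in a library, and none of the 6 that could be tested passed. Dendritic cell markers (8 genes) summed to 11.6 to 23.1 CPM at day 7, against 11.4 to 18.6 CPM in uninjured skin, and none of 4 tested passed. Of the 8 neutrophil markers that could be tested, 2 rose, S100a9 and Clec4d, while the sum over the list was 54.9 to 97.7 CPM at day 7, against 53.0 to 120.0 CPM in uninjured skin.

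In 2 of the wounded libraries, the marker sum of macrophages or of luminal epithelium lay inside the range of uninjured skin. In day 3 replicate 1 macrophage markers summed to 321 CPM, inside the uninjured range of 163 to 328 CPM. Single markers differed there, with Tyrobp at 17.7 CPM, above its uninjured range of 2.74 to 11.1 CPM. Mrc1, at 19.95 CPM, lay inside its range of 8.54 to 37.0 CPM. Both day 3 libraries lay above all uninjured ones for 8 called genes, a placing met by 16.9% of all genes. These were Ifit1, Ifit3, Isg15, Usp18, Oasl1, Oasl2, Oas2 and Ifi47. In day 3 replicate 1 they included Ifit1 at 5.14 CPM, Isg15 at 10.9 CPM and Usp18 at 10.1 CPM. Oas1a, at 2.26 CPM in that replicate, lay inside its uninjured range of 1.01 to 2.81 CPM. Rsad2, at 3.53 CPM in day 3 replicate 2, lay inside its uninjured range of 0.854 to 3.74 CPM. In day 3 replicate 2 luminal epithelium markers were at 20.95 CPM, inside the uninjured range of 11.7 to 26.5 CPM, with Ifit1 at 5.35 CPM, Isg15 at 10.2 CPM and Usp18 at 8.34 CPM. Endothelial markers, at 272 and 305 CPM, were above the uninjured range of 87.3 to 179 CPM in both day 3 libraries. These are values of single libraries with no test, set against uninjured libraries that entered the choice of the called genes. The 8 genes were also picked by both day 3 libraries, which fixes their place above uninjured skin there. The part of these cells in the values of the called genes was not tested.

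**Figure D5:**
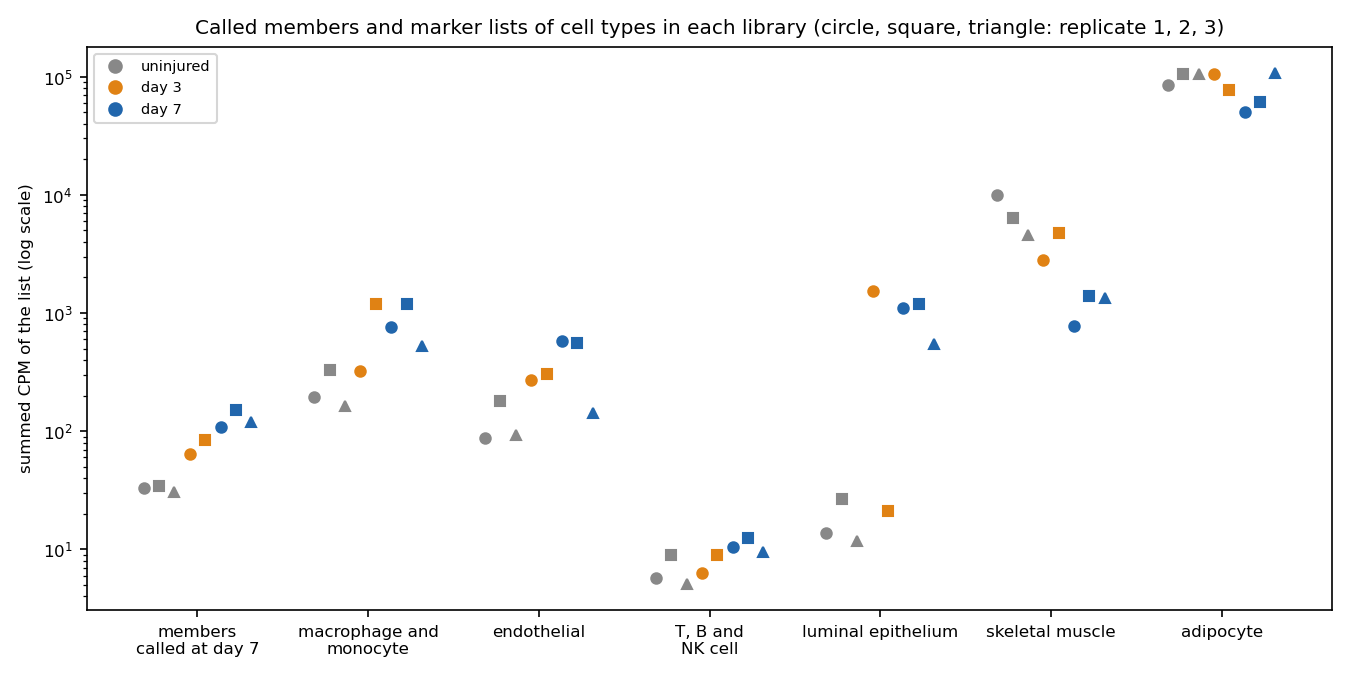
Summed CPM, on a log axis, of the called interferon genes and of marker lists of cell types in each library, by group (uninjured, day 3, day 7), with the point's shape giving the replicate. The called genes are at 30.5 to 34.7, 63.8 to 83.8 and 110 to 153 CPM in the 3 groups, while macrophage and luminal epithelium markers separate the day 3 libraries (321 and 1182 CPM, 1542 and 20.95 CPM).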

How the data were processed

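The deposited values are raw counts of reads per gene, given by the authors with each library in its own column and no normalization. The header of the table is that of featureCounts 2.0.8, per the file headers, and the submitters' processing notes also name STAR 2.7.10b, DESeq2 and mm10. The sources used here do not give the strand setting or the counting of reads that match several genes. Only 1543 of 52147 identifiers shared with the GRCm38 annotation (GENCODE M21) have the same start there, so coordinates of the table are printed apart from those of RefSeq promoters on GRCm38.p6. Column names carry a number code that is the same within each group and differs between groups, so a batch by that code cannot be told apart from the group. Day 3 and day 7 are read from title codes taken as days post wounding.

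Counts were tested with edgeR 4.0.16 in R 4.3.3 (TMM, filterByExpr at a minimum count of 10, quasi-likelihood F test, 1 mean per group over all 8 libraries, 5 residual degrees of freedom, two-sided). This kept 18656 genes. P-values were adjusted by Benjamini-Hochberg over all of them, at 0.05, in 3 contrasts. The fits were also checked on simulated data. Standard errors come from the log2 fold change and its F statistic. CPM are TMM-normalised. Floors of 3 counts cover counting error only.

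Members and lists were chosen with earlier results of these data known. Values per library are given for members called in at least 1 contrast and for Irf1, Irf7, Irf9 and Stat2, and for other genes where a result turns on them. Pathway genes outside the list are named when called or when they are ligands or receptors with counts. Promoters are shown for up to 6 called members with a motif and up to 2 without, in order of adjusted p. DESeq2 1.42.0 and limma-voom (limma 3.58.1) were alternatives, besides other scaling, filters, a replicate block and leaving out libraries.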

Additional observations from a re-analysis of the deposited data

Results flagged for a closer look

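Cmpk2, the mitochondrial nucleotide kinase gene, lay on opposite sides of its uninjured mean at day 7 and at day 3, while both days overlapped the uninjured libraries. Every day 7 library lay above the mean of the uninjured libraries (11.2, 10.1 and 10.1 CPM, against a mean of 8.20 CPM), and both day 3 libraries lay below it (4.52 and 5.45 CPM). The log2 fold change of day 7 against day 3 was 1.06, with an unadjusted p of 0.0207 and an edgeR adjusted p of 0.401, so it did not pass the test over all genes. Against uninjured skin the log2 fold changes were 0.34 at day 7 and -0.71 at day 3. Uninjured replicate 3, at 5.34 CPM, lay between the day 3 libraries. Uninjured replicate 1, at 10.25 CPM, lay above day 7 replicates 2 and 3, at 10.08 and 10.06 CPM. The share of all genes placed in this way around the uninjured mean was not counted.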

How the results depend on the processing

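The members were recounted under 17 alternatives. At day 7 against uninjured skin 10 of 39 members were called higher in the main analysis (beside 5.90% of all genes). The count was 10 with either other scaling (beside 5.93% and 6.29%) or with a minimum count of 30 (beside 7.17%). It was 14 of 41 with no filter (beside 6.11%), 12 of 39 with DESeq2 (beside 10.1%) and 8 of 39 with limma-voom (beside 2.96%). With only the compared groups in the fit it was 11 of 38 (beside 6.87%). It was 3 to 12 when 1 day 7 or uninjured library was left out (beside 1.28% to 14.2%). No member was called lower in any of them. At day 3 against uninjured skin, where the main analysis called 0, 2 of 41 were called higher with no filter (beside 1.8% of all genes). With DESeq2 3 of 39 were called higher (beside 1.74%), and with 1 day 7 or uninjured library left out 0. Between day 7 and day 3 the count was 0 throughout. The 13 other pathway genes called higher at day 7 became 32 with no filter, 25 with DESeq2, 5 with limma-voom, 33 without day 3 replicate 1 and day 7 replicate 3 together, and 1 to 23 with 1 library left out. Lower calls among the other pathway genes, 0 in the main analysis, became 2 of 127 with no filter, 2 of 114 with DESeq2 and 1 of 108 with only the compared groups. Over all genes the lower calls in these 3 fits were 794 of 38669, 717 of 18656 and 320 of 16634. With 1 library left out, 0 to 6 of the other pathway genes were called lower. Over all genes, 1439 of 18469 were lower without day 7 replicate 3. Stat2 at day 3 against uninjured skin turned to -0.19 on the log2 scale without day 3 replicate 2, the lowest of the values with 1 library left out, the highest being 1.34 without day 3 replicate 1. Fits without a day 3 replicate leave that group 1 library, which is assumed to vary like the other groups.

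Counts over all genes at day 7 (higher and lower) were 1101 and 330 in the main analysis, 1885 and 717 with DESeq2, 552 and 242 with limma-voom and 2362 and 794 with no filter. At day 3 they were 2 and 0 in the main analysis, 324 and 106 with DESeq2 and 696 and 230 with no filter. Upper-quartile scaling moved the median of all genes at day 3 against uninjured skin to 0.13, against 0.02 in the main analysis, and that of the members to 0.47, against 0.37. The causes were not tested. Of 1984 member values compared, 95 changed sign, 0 of them with a call.

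Replicate numbers are shared by the titles of the groups. Deviations of same-numbered libraries from their group means correlated at -0.06, 0.06 and 0.22 between day 7 and uninjured skin, and not every library correlated best with its own number, so the numbers are not taken to pair the libraries. With a replicate block 12 members were called higher at day 7 (1563 higher and 568 lower genes in all), and 0 in both other comparisons, and of the other pathway genes 20 were called higher and 2 lower at day 7. Depth limits the lowest members, Oas3 and Mx2, which had at most 13 counts in a library.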
